A study of Mus musculus with 20 samples.

Results

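The clustered histone genes were described in kidneys of mice with and without telomerase, young and old. They were taken as every row of the table whose symbol begins with Hist1h, Hist2h, Hist3h or Hist4h. The rule found 22 genes among 19940 rows: 3 encode linker histone H1, 3 encode H2A, 6 encode H2B, 3 encode H3 and 7 encode H4. Whole kidneys of 20 male mice were profiled with 1 library per mouse. The 4 groups of 5 mice were G3 Tert-/- mice aged 47 weeks (old), Tert+/+ mice aged 47 weeks, G3 Tert-/- mice aged 7 weeks (young) and Tert+/+ mice aged 7 weeks. The protein made from Tert is the catalytic part of telomerase, and G3 stands for generation 3. The Tert-/- mice lacked the gene in all cells rather than in the kidney alone, and telomere length per mouse was not analysed here. The study compares genotypes within an age and ages within a genotype. Whole kidney mixes many cell types, so fewer cells of a type and less RNA per cell cannot be told apart in any value given here.

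The core histones H2A, H2B, H3 and H4 form the protein spool on which DNA is wound, and H1 binds the linker DNA between spools. Most of their genes lie in clusters, have no introns and are transcribed mainly in S phase, when newly copied DNA needs new histones. Their messenger RNAs normally end just after a short stem-loop bound by the stem-loop binding protein SLBP, and carry no poly(A) tail. Some of these genes also make longer, polyadenylated RNAs, which have been described in cells that have stopped dividing. The library kit started from an oligo-dT primer and read 1 end of each RNA, so it counts the polyadenylated forms and would miss most of the stem-loop forms. A value here is therefore not the total histone mRNA of the kidney. Values are normalized read counts, not divided by transcript length because each RNA gives reads near its 3′ end only.

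The stem-loops of 5 genes are shown because this element marks where the form without a poly(A) tail normally ends. They are the H4 genes with the most reads, both tested below in the age comparisons, and the H1 and H2A genes described with them. Capitals mark the 16-base stem-loop, and lower case marks the flanking bases. Sequences are 5′ to 3′ on the strand of the gene, read from GENCODE M21 transcripts on build GRCm38, and all lie after the stop codon.
Hist1h4h, chr13:23531453-23531478, plus strand: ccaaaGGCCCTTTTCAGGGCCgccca
Hist1h4i, chr13:22040961-22040986, minus strand: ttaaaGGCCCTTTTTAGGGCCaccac
Hist1h1c, chr13:23739507-23739532, plus strand: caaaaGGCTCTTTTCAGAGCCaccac
Hist1h1d, chr13:23555782-23555807, plus strand: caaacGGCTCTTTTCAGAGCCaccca
Hist3h2a, chr11:58955167-58955192, plus strand: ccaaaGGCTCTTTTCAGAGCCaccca
The stem-loop of Hist1h1c, Hist1h1d and Hist3h2a was 1 sequence shared by 10 of the 22 genes, in the H1, H2A, H2B and H3 families. That of Hist1h4h was shared by 4 H4 genes, and that of Hist1h4i by 2 H4 genes. The histone stem-loop motif, searched on the sense strand after the stop codon, was found in the longest coding transcript of 19 of the 22 genes. In the transcripts searched it was not found in those letters for Hist1h2bc, Hist2h2be and Hist2h3b. The Hist1h2bc transcript has 2 exons, and that of Hist2h3b ends 37 bases after the stop codon. Sequence outside these transcripts was not searched.

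The annotation of build GRCm38 holds 70 genes with such symbols, of which 67 code for protein and 3 are pseudogenes. The 22 genes of the table lie on chromosome 13 (14 genes, the Hist1 cluster), chromosome 3 (5 genes), chromosome 11 (2 genes) and chromosome 6 (1 gene). Another 45 coding genes of the annotation had no row among those analysed here. The annotated transcripts of the counted genes were longer. Their median length was 1202.5 bases, against 485 bases for the other 45 coding genes. More than 3 bases after the stop codon were annotated in all 22 counted genes and in 30 of the 45 others. The stem-loop was found in 19 of the 22 and in 24 of the 45. At least 100 bases followed it in 15 of those 19 and in 7 of those 24. The polyadenylation signal AATAAA, searched on the sense strand after the stop codon, occurred in 11 of 22 and in 8 of 45. These are descriptions of an annotation, in which unfinished ends cannot be told from short ends.

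**Figure D1:**
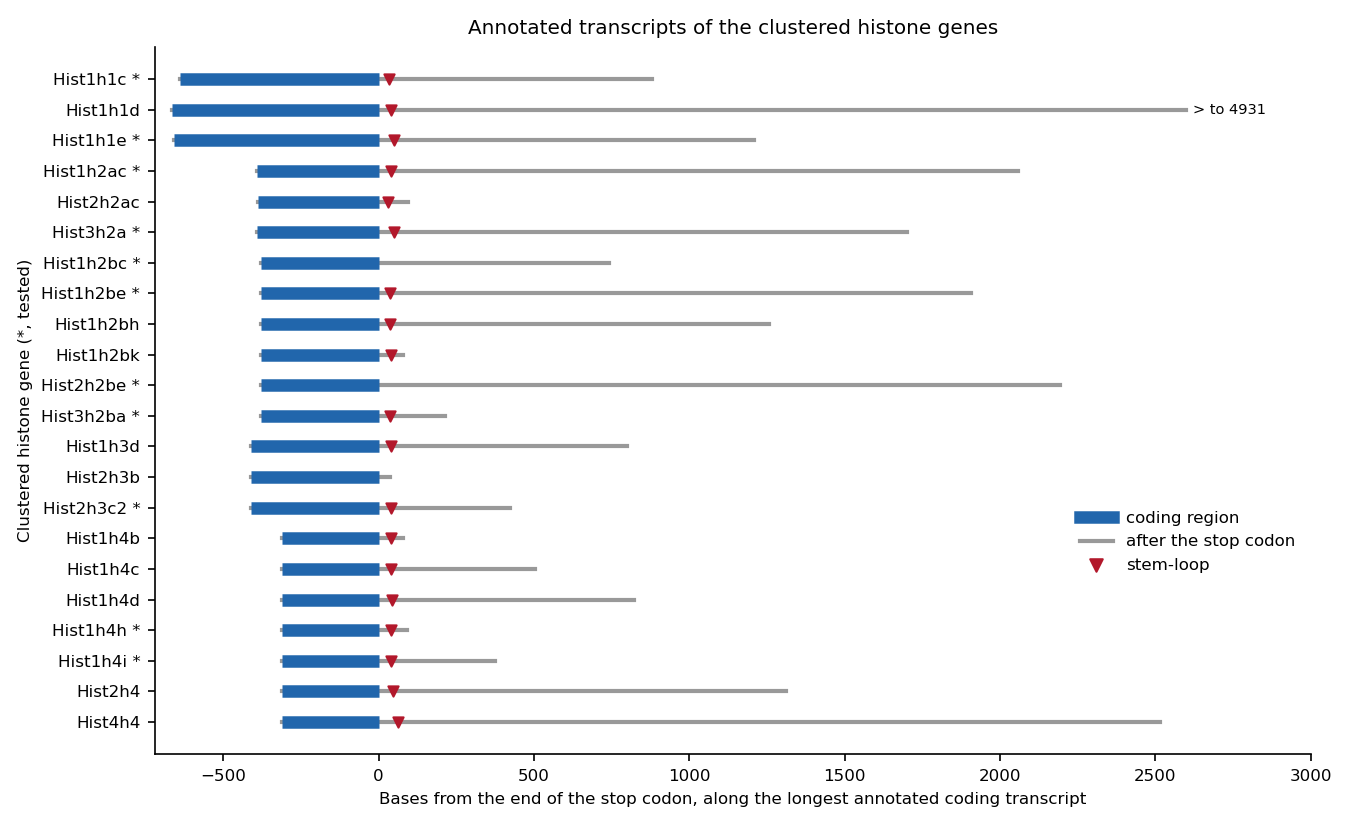
The longest annotated coding transcript of each of the 22 genes is drawn to scale, in bases from the end of the stop codon, with coding regions in blue, the sequence after the stop codon in grey and the stem-loop as a red triangle. In 15 of 22 genes at least 100 bases follow the stem-loop, whereas Hist1h4h ends 46 bases after it.

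Among the 9 tested genes with the stem-loop, 8 have at least 100 bases after it, and Hist1h4h is the exception. Its annotated transcript is 470 bases long, has 1 exon (chromosome 13, 23531050 to 23531519, plus strand) and ends 46 bases after the stem-loop, with no AATAAA after the stop codon. Hist1h4i (chromosome 13, 22040636 to 22041362, minus strand) runs 330 bases beyond its stem-loop, also with no AATAAA. The promoters of both are shown because their means differed with age in opposite directions. Capitals mark GGTCCG, the core of the H4 site bound by the factor HINFP. The windows of 200 bases run from position -190 to position 10 around the annotated start, from RefSeq on GRCm38.p6.
Hist1h4h, chr13:23530854-23531053, plus strand: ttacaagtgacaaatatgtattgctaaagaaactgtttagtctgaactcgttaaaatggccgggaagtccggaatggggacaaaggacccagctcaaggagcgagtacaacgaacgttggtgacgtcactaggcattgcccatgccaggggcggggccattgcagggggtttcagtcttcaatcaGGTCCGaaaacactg
Hist1h4i, chr13:22041353-22041552, minus strand: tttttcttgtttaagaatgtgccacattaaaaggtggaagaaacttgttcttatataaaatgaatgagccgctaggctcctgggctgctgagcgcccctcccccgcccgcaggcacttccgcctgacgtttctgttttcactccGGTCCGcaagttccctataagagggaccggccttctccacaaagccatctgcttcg
Promoters of 300 bases, from 250 before to 50 after the start, were found for 19 of the 22 genes and searched on both strands. A gene was counted where any of its promoters held the motif. GGTCCG was found for 6 of 6 H4 genes and for 7 of all 19, against 8.25% of 32851 promoters of the same length. The octamer ATTTGCAT, a site of POU factors such as OCT1, was found for all 3 H2A genes and for 2 of 4 H2B genes. It was in 1.74% of all promoters. Of the H2B genes, Hist1h2be had a promoter with the octamer and another without. CCAAT was found for 15 of 19 histone genes and in 37.4% of all promoters, and TATAAA for 9 of 19 and in 13.6%. Each motif was counted on its own, also where sites of 2 motifs share bases. A match describes letters and not binding.

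Libraries held 7161690 to 9757594 reads assigned to genes, and 18628 to 19137 genes were above 0. A count of 0 allows up to 3 reads, which is 2.49 to 3.38 normalized counts depending on the library, for counting error only. Depth ranges of old and young libraries overlapped, with 7161690 to 7676486 reads in G3 Tert-/- and 7300298 to 8156022 in Tert+/+, against 7486637 to 9384047 in young G3 Tert-/- and 7732866 to 9757594 in young Tert+/+. On the first principal component of all tested genes, which held 21.96% of the variance, 2 libraries stood apart: Tert+/+ young replicate 1 at 67.5 and Tert+/+ old replicate 4 at 56.6, against -39.4 to 21.01 for the others. Every comparison was also run without both. RNAs that lack a poly(A) tail were a list of 33 counted genes, of which 23 were tested, mostly mitochondrial tRNAs. The 33 genes summed to 3209 to 11541 normalized counts in young Tert+/+ libraries and to at most 3524 in any other library. The kidney identity of the tissue was plain: all 14 markers of nephron epithelium were tested, and none was at 0 in any library. Tert itself was counted at 5.28, 8.19, 8.31, 5.11 and 8.08 in old G3 Tert-/-, against 7.25, 7.88, 11.7, 16.9 and 15.6 in old Tert+/+ kidneys. It stood at 1.82, 0.979, 5.65, 4.98 and 2.14 in young G3 Tert-/-, against 15.8, 7.72, 10.8, 10.2 and 4.21 in young Tert+/+ kidneys. A 3′ count may lie outside the deleted part, so Tert is a weak check of the genotype labels. Tert lies on chromosome 13 too, 49.9 megabases from the nearest of the 22 genes.

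The 22 genes together made up a steady and small part of each library. Their sum was 0.0357% to 0.0516% of the assigned reads, with a median of 0.0406%. It averaged 3370 ± 374 normalized counts in old G3 Tert-/-, 3350 ± 297 in old Tert+/+, 3244 ± 346 in young G3 Tert-/- and 3173 ± 328 in young Tert+/+ kidneys (SD, n = 5 each). These means lie within 1 SD of each other. Hist1h2bc alone supplied 46.3% to 63.0% of the sum, with a median of 56.3%. Hist1h1c supplied a median of 23.95%, Hist3h2a 8.17% and Hist1h1e 5.06%.

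**Figure D2:**
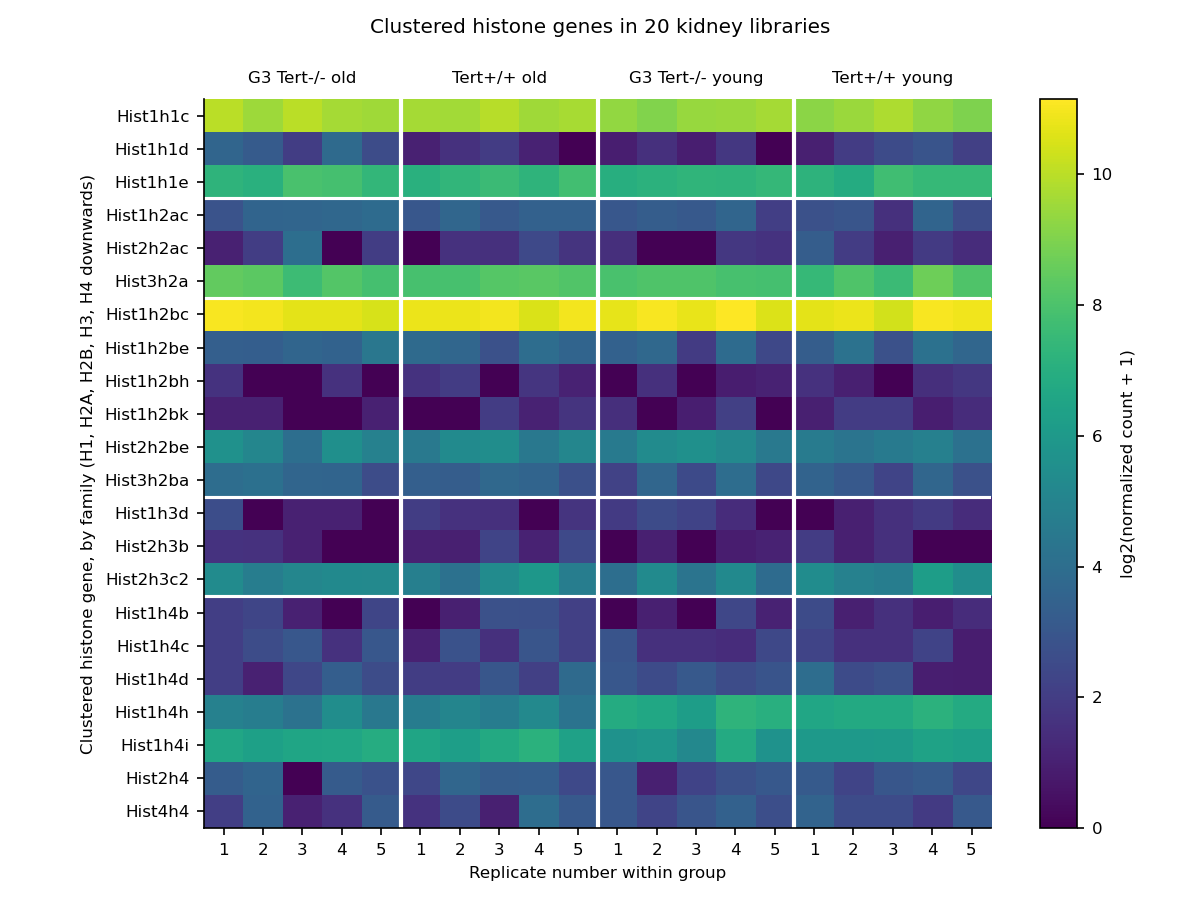
Each cell is the log2(normalized count + 1) of 1 gene in 1 library, with the 22 genes by family downwards and the 20 libraries by group across. Hist1h2bc and Hist1h1c are bright in all 20 libraries, and Hist1h4h is the gene whose colour separates the old groups from the young groups.

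A gene was tested where 5 or more libraries had a normalized count of 10 or above. That left 11 of the 22 histone genes among 14630 tested genes: Hist1h1c, Hist1h1e, Hist1h2ac, Hist3h2a, Hist1h2bc, Hist1h2be, Hist2h2be, Hist3h2ba, Hist2h3c2, Hist1h4h and Hist1h4i. The other 11 were below that level. Tests used limma on log2(normalized count + 1), with p adjusted by the Benjamini-Hochberg method over all tested genes, and an adjusted p under 0.05 passed. This scale understates the change of low genes.

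With age, 1 of the 11 tested histone genes fell and none rose, in either genotype. It was Hist1h4h, one of several genes for the same H4 protein. In G3 Tert-/- kidneys, 2.24% of all tested genes passed for age and 1.31% passed as lower in old mice, and in Tert+/+ kidneys 0.649% and 0.246% did. Its counts in G3 Tert-/- kidneys were 28.5, 25.6, 17.7, 42.9 and 21.2 in old mice, against 114.5, 98.8, 73.5, 152.0 and 130.8 in young mice. In Tert+/+ kidneys they were 24.9, 32.5, 24.3, 37.2 and 17.8 in old mice, against 95.5, 109.0, 107.6, 142.3 and 112.7 in young mice. Every old kidney was below every young kidney of its genotype, a separation in this direction that 2.66% of tested genes had in G3 Tert-/- and 1.25% in Tert+/+. The means were 27.2 ± 9.71 in old G3 Tert-/- and 113.9 ± 30.0 in young G3 Tert-/- kidneys, and 27.3 ± 7.57 in old Tert+/+ and 113.4 ± 17.4 in young Tert+/+ kidneys (SD, n = 5 each).

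On the log2 scale Hist1h4h fell by 2.05 with age in G3 Tert-/- mice (SE 0.23, limma adjusted p = 6.86e-06), which is 4.14-fold. It fell by 2.04 in Tert+/+ mice (SE 0.23, limma adjusted p = 2.00e-05), which is 4.12-fold. The 2 differences are between different mice. However, 1 model of all 20 libraries gave the spread for both, so their p-values are not independent. By unadjusted p it ranked 14 among 14630 genes in G3 Tert-/- and 5 in Tert+/+, and it was the 13th and the 7th largest fall. The difference between the age effects was -0.00 (SE 0.32, limma adjusted p = 0.997), with a 95% interval from -0.67 to 0.67. Without the 2 libraries that stood apart it fell by 2.22 in Tert+/+ mice (SE 0.24, limma adjusted p = 1.47e-05). Genotype differences of Hist1h4h were -0.03 at 47 weeks (95% interval -0.50 to 0.45) and -0.02 at 7 weeks (95% interval -0.50 to 0.45).

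The count of Hist1h4h may include reads of its relatives. Across the 7 H4 genes of the table the coding sequences are 85.3% to 96.5% identical. Of all 50-base stretches in the last 400 bases of the Hist1h4h transcript, 55.0% also occur in another gene, in each case another H4 gene. The sources used here do not say how reads matching several genes were treated. No other annotated exon overlaps those 400 bases on either strand. The nearest gene with a row in the table, Gm11335, starts 107 bases upstream on the opposite strand and was below the level for testing. Of the tested genes within 100 kb, Hist1h2be and Hist1h1e were not called with age in either genotype. Their log2 differences were 0.56 and 0.27 in G3 Tert-/-, and -0.04 and 0.07 in Tert+/+ mice. Gm46404, 85.1 kb away, differed by -0.14 in G3 Tert-/- and by 0.68 in Tert+/+ mice, and neither passed.

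The other tested H4 gene, Hist1h4i, stood higher on average in old kidneys and did not pass. It had 95.1, 79.8, 94.5, 94.98 and 117.2 in old G3 Tert-/- kidneys, against 49.96, 57.7, 35.8, 111.3 and 50.4 in young ones. In Tert+/+ kidneys it had 93.3, 75.9, 109.1, 137.4 and 82.3 in old mice, against 64.0, 62.7, 67.5, 85.0 and 78.2 in young mice. The young G3 Tert-/- kidneys were below all 5 old ones apart from replicate 4, and in Tert+/+ mice the groups overlapped. The log2 age difference was 0.75 in G3 Tert-/- (SE 0.22, limma adjusted p = 0.0758) and 0.45 in Tert+/+ (SE 0.22, limma adjusted p = 0.469). Without young G3 Tert-/- replicate 4 the first became 0.99 (limma adjusted p = 0.00366), and without the 2 libraries that stood apart it remained 0.75 with a limma adjusted p of 0.0385. Those 2 libraries are Tert+/+ and are not in this comparison. Without them 4.58% of all tested genes passed for age in G3 Tert-/-, against 2.24% with them. The call of Hist1h4i therefore rests on which libraries are kept.

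The remaining 5 H4 genes were all below the level for testing. The highest by mean were Hist2h4 at 6.43, Hist4h4 at 5.95 and Hist1h4d at 5.53 normalized counts over 20 libraries. Hist2h4 averaged 6.79 ± 4.22 in old G3 Tert-/-, 7.64 ± 3.28 in old Tert+/+, 5.07 ± 2.73 in young G3 Tert-/- and 6.22 ± 2.07 in young Tert+/+ kidneys (SD, n = 5 each). Hist4h4 and Hist1h4d likewise had overlapping values in all groups. Summed over the 6 H4 genes other than Hist1h4h, counts were 119.9 ± 15.8 in old G3 Tert-/- and 126.2 ± 30.9 in old Tert+/+, against 83.4 ± 31.6 in young G3 Tert-/- and 93.9 ± 10.7 in young Tert+/+ kidneys. With Hist1h4h included the order was turned round, at 147.1 ± 17.2 and 153.5 ± 35.7 in the old groups, against 197.3 ± 59.4 and 207.3 ± 21.6 in the young groups, G3 Tert-/- first in each pair.

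**Figure D3:**
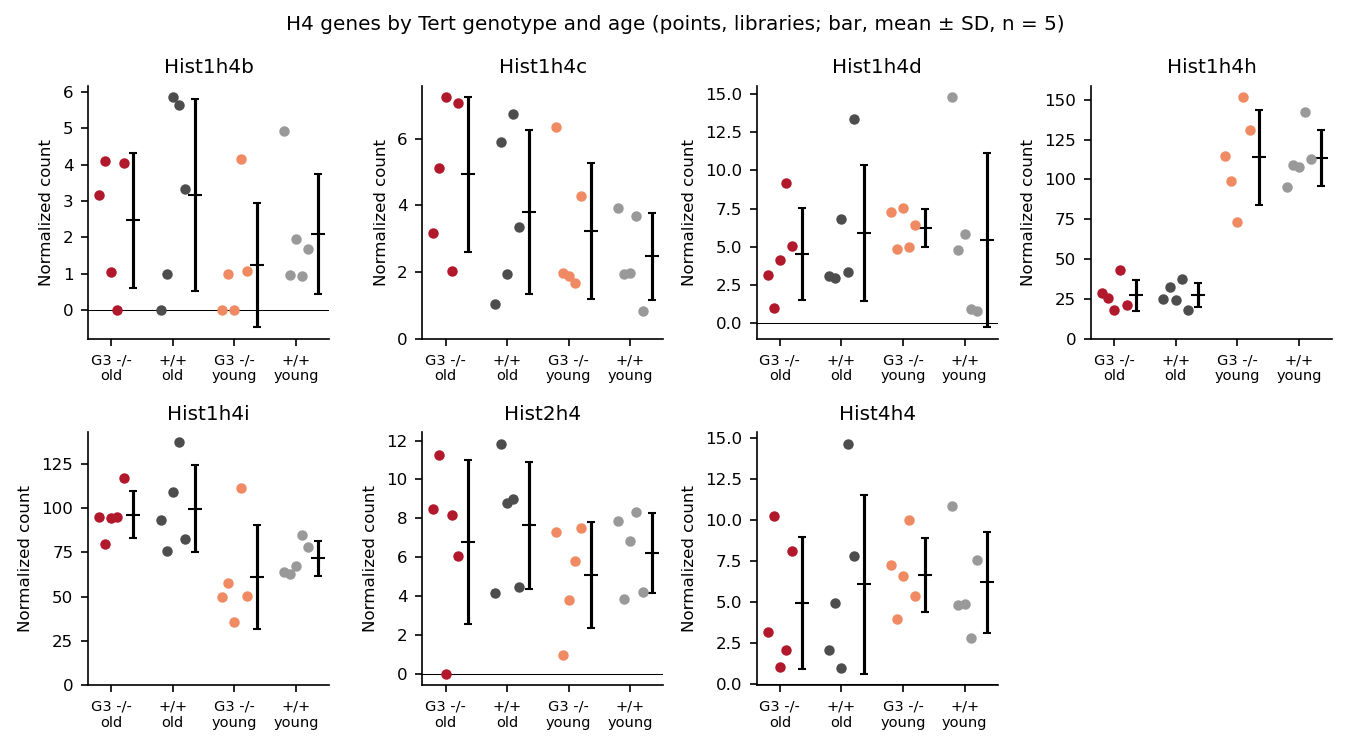
Normalized counts of the 7 H4 genes are plotted by group, with 1 point per library and a bar at the mean ± SD of 5 libraries, each panel on its own scale. Hist1h4h stands at 17.7 to 42.9 in old kidneys and at 73.5 to 152.0 in young kidneys, while Hist1h4i lies higher on average in old kidneys with overlapping groups.

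The 2 tested H1 genes were higher on average in old kidneys, and neither passed the test. Hist1h1c, a widely made linker histone, had 1021, 739, 1028, 810 and 765 in old G3 Tert-/- kidneys, against 658, 531, 694, 712 and 794 in young ones. Its values among Tert+/+ kidneys were 792, 780, 1006, 750 and 837 in old mice, against 592, 716, 891, 626 and 502 in young mice. The groups overlapped in both genotypes. The log2 age difference was 0.36 in G3 Tert-/- (SE 0.14, limma adjusted p = 0.214) and 0.34 in Tert+/+ (SE 0.14, limma adjusted p = 0.365).

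Hist1h1e, another linker histone, had 153, 133, 247, 234 and 166 in old G3 Tert-/- kidneys, against 128, 144, 155, 154 and 174 in young ones. Tert+/+ kidneys had 133, 164, 193, 153 and 221 in old mice, against 146, 117, 213, 178 and 175 in young mice. Groups overlapped throughout, with log2 age differences of 0.27 in G3 Tert-/- and 0.07 in Tert+/+. The last 400 bases of its transcript are covered on the same strand by annotated exons of Hist1h2be and Gm11398, so its count is uncertain. Hist1h1c and Hist1h1e were both highest in the same library in 3 of the 4 groups, the exception being old Tert+/+.

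Hist1h1d, the third H1 gene, was below the level for testing and is named here after its values were seen. It had 11.6, 8.19, 3.12, 13.3 and 5.05 in old G3 Tert-/- kidneys, against 1.04, 1.97, 2.92, 1.13 and 0 in old Tert+/+ kidneys. In young kidneys it had 0.908, 1.96, 0.942, 2.49 and 0 in G3 Tert-/-, against 0.984, 2.89, 4.89, 6.47 and 3.37 in Tert+/+. In normalized counts all 5 old G3 Tert-/- kidneys were above all old Tert+/+ and all young G3 Tert-/- kidneys. The lowest, with 3 reads, was only just so. The highest old Tert+/+ and the highest young G3 Tert-/- kidney also had 3 reads each, so the separation came from the scaling of each library. Of all rows of the table, 0.812% had such a separation upwards by genotype at 47 weeks and 1.73% by age in G3 Tert-/-. The reads behind it were 40 in old G3 Tert-/- and 7 in old Tert+/+, against 7 in young G3 Tert-/- and 20 in young Tert+/+ kidneys.

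Fitted without any filter on low values, Hist1h1d passed for age in G3 Tert-/- (log2 difference 2.01, SE 0.47, limma adjusted p = 0.0253), where 0.682% of all 19940 rows passed as higher. The genotype difference at 47 weeks was 1.94 (SE 0.47, limma adjusted p = 0.179). The interaction (old genotype difference minus young genotype difference) was 2.99 (SE 0.66, limma adjusted p = 0.453). Neither passed. Fitted differences of genes with so few reads depend on the constant added before the logarithm.

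**Figure D4:**
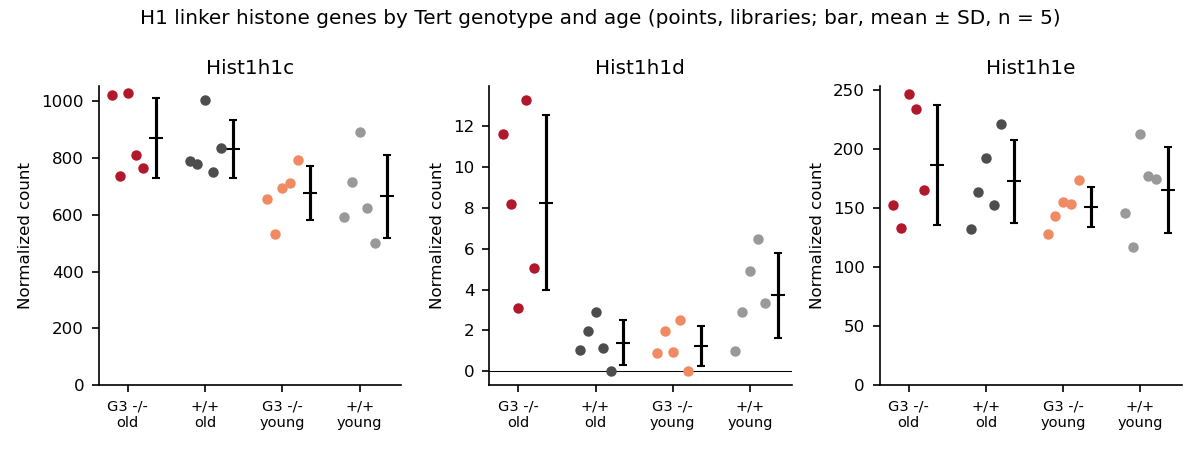
Normalized counts of the 3 H1 genes are plotted by group, with 1 point per library and a bar at the mean ± SD of 5 libraries, each panel on its own scale that includes 0. Hist1h1d stands at 3.12 to 13.3 in old G3 Tert-/- kidneys and at 0 to 6.47 elsewhere, and Hist1h1c and Hist1h1e overlap between all groups.

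H2B genes included the most abundant of all, Hist1h2bc, which encodes a core H2B protein. It had 2091, 1963, 1673, 1677 and 1406 in old G3 Tert-/- kidneys, against 1708, 2117, 1740, 2277 and 1526 in young ones. Among Tert+/+ kidneys the values were 1825, 1809, 1996, 1467 and 1960 in old mice, against 1653, 1820, 1355, 2093 and 1912 in young mice. It did not separate the groups, and its differences in the 4 pairwise comparisons were between -0.09 and 0.08 on the log2 scale with an SE of 0.13. Among the 22 genes it was also the steadiest, with a highest library 1.26 times its median library.

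Hist2h2be, an H2B gene of the chromosome 3 cluster, had 48.6, 33.8, 15.6, 46.0 and 29.3 in old G3 Tert-/- kidneys, against 22.7, 41.1, 48.0, 36.5 and 21.4 in young ones. In Tert+/+ kidneys it had 21.8, 39.4, 42.8, 21.4 and 33.4 in old mice, against 23.6, 18.3, 23.5, 27.7 and 16.8 in young mice. The young Tert+/+ kidneys reached at most 27.7, and the other groups spread over both sides of that level. The genotype difference at 7 weeks was 0.56 (SE 0.29, limma adjusted p = 0.483), and the age difference in Tert+/+ was 0.48 (SE 0.29, limma adjusted p = 0.592).

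Hist1h2be and Hist3h2ba, both H2B genes, were counted at lower levels. Hist1h2be had 9.51, 9.21, 11.4, 10.2 and 20.2 in old G3 Tert-/- kidneys, against 9.99, 12.7, 2.83, 14.1 and 4.29 in young ones. Its values among Tert+/+ kidneys were 13.5, 11.8, 5.84, 14.6 and 11.1 in old mice, against 8.86, 17.4, 5.87, 16.6 and 11.8 in young mice. All its groups overlapped, with 1 high value in old G3 Tert-/- replicate 5. Hist3h2ba had 14.8, 16.4, 11.4, 11.2 and 5.05 in old G3 Tert-/- kidneys, against 3.63, 11.7, 4.71, 15.0 and 4.29 in young ones. Tert+/+ kidneys had 9.33, 8.87, 12.7, 11.3 and 5.56 in old mice, against 10.8, 7.72, 3.91, 12.02 and 5.89 in young mice. Its groups overlapped too, and the largest log2 difference, with age in G3 Tert-/-, was 0.63 (SE 0.39, limma adjusted p = 0.480). Of the 50-base stretches in its last 400 bases, 13.4% also occur in the pseudogene Hist3h2bb-ps.

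No H2A gene passed in any comparison. Hist3h2a, on chromosome 11, had 353, 322, 201, 287 and 234 in old G3 Tert-/- kidneys, against 249, 273, 268, 241 and 233 in young ones. Among Tert+/+ kidneys the values were 241, 242, 295, 311 and 277 in old mice, against 178, 273, 195, 408 and 267 in young mice. Its differences in the 4 pairwise comparisons were between -0.002 and 0.12 on the log2 scale with an SE of 0.18. Hist1h2ac had 6.34, 11.3, 11.4, 12.3 and 14.1 in old G3 Tert-/- kidneys, against 7.27, 8.81, 7.54, 11.6 and 3.22 in young ones. In Tert+/+ kidneys it had 7.25, 11.8, 7.79, 10.1 and 10.01 in old mice, against 5.91, 6.75, 1.96, 11.1 and 5.05 in young mice. Old kidneys were higher on average in both genotypes, with overlap, by 0.52 in G3 Tert-/- (SE 0.36, limma adjusted p = 0.540) and by 0.66 in Tert+/+ (SE 0.36, limma adjusted p = 0.527). Hist1h2ac reached a count of 10 in 9 libraries, most of them of old kidneys. It was therefore tested mainly through the groups where it was high, and these differences support nothing.

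Hist2h3c2 was the 1 H3 gene with enough counts. It had 41.2, 25.6, 34.3, 38.8 and 37.4 in old G3 Tert-/- kidneys, against 15.4, 39.1, 18.8, 38.2 and 13.9 in young ones. Its values among Tert+/+ kidneys were 26.9, 16.8, 40.9, 58.6 and 25.6 in old mice, against 42.3, 28.9, 25.4, 72.1 and 42.9 in young mice. Young G3 Tert-/- kidneys had 3 low and 2 higher values, and every pair of groups overlapped. The genotype difference at 7 weeks was -0.77 (SE 0.33, limma adjusted p = 0.451), the smallest p of any histone gene there. The interaction was 0.94 (SE 0.47, limma adjusted p = 0.802).

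None of the 11 tested histone genes passed for genotype at either age. At 47 weeks, where 0.0957% of all tested genes passed, their log2 differences ran from -0.05 to 0.23 with a median of 0.08, against 0.01 for all genes, and their 95% intervals lay within -0.72 and 1.04. The limma adjusted p were 0.943 to 0.997, and 0 of the 11 had an unadjusted p under 0.05. At 7 weeks, where 0% of tested genes passed with limma, the differences ran from -0.77 to 0.56 with a median of -0.02, and 1 of the 11, Hist2h3c2, had an unadjusted p under 0.05. Among all genes at 7 weeks 1559 had an unadjusted p under 0.05, edgeR called 0 and DESeq2 called 13. The interaction passed for 0.00684% of tested genes and for 0 of the 11, of which 0 had an unadjusted p under 0.05. In all 3 of these comparisons edgeR and DESeq2, run on the recovered reads, also called 0 of the 11.

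For age, 8 of the 11 differences were positive in each genotype. The median was 0.36 in G3 Tert-/- and 0.11 in Tert+/+, against 0.00 for all genes in both. Hist1h2ac, tested mainly through old kidneys, is among the 8 positive, so this count and the medians are descriptions only. An unadjusted p under 0.05 was found for 3 of the 11 in G3 Tert-/- and 2 in Tert+/+, where 14.9% and 10.6% of all genes had one. Apart from Hist1h4h, the smallest limma adjusted p were 0.0758 in G3 Tert-/- and 0.365 in Tert+/+.

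**Figure D5:**
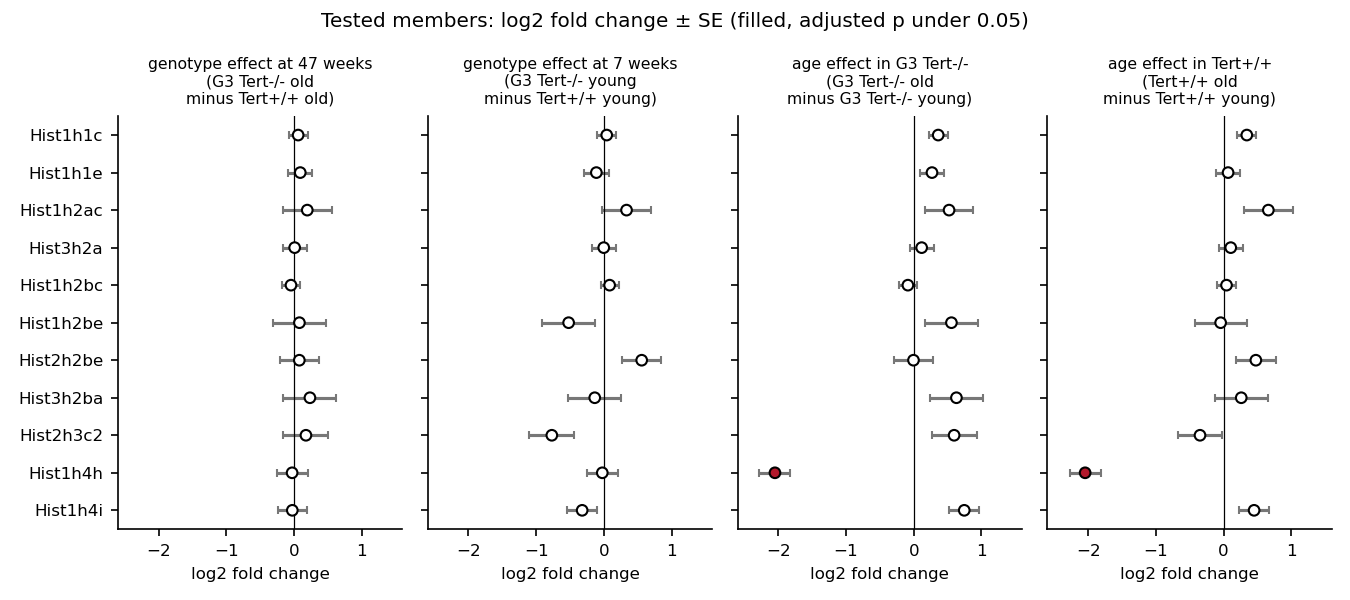
Log2 fold changes of the 11 tested genes are drawn with bars of 1 SE for the genotype effect at 47 weeks, the genotype effect at 7 weeks, and the age effect in G3 Tert-/- and in Tert+/+ mice. The 2 filled points, with an adjusted p under 0.05, are Hist1h4h at -2.05 and -2.04 with age, and every other point lies between -0.77 and 0.75.

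The 11 genes below the level for testing had means of 1.19 to 6.43 normalized counts. They were above 0 in 13 to 20 libraries, and the highest single value was 15.6, for Hist2h2ac in old G3 Tert-/- replicate 3. They comprise Hist1h1d, Hist2h2ac, Hist1h2bh, Hist1h2bk, Hist1h3d, Hist2h3b, Hist1h4b, Hist1h4c, Hist1h4d, Hist2h4 and Hist4h4. Summed, they gave 40.4 ± 4.82 in old G3 Tert-/- and 37.2 ± 12.2 in old Tert+/+, against 30.1 ± 6.61 in young G3 Tert-/- and 35.6 ± 12.97 in young Tert+/+ kidneys. Reads of Hist2h3b, Hist1h2bk and Hist1h4b are the least certain, since 92.0%, 73.2% and 54.6% of the 50-base stretches in the last 400 bases of each occur in other genes. When all rows were fitted without a filter, Hist1h1d with age in G3 Tert-/- was the 1 call among these 11 genes in the 5 comparisons.

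The library with the highest count differed between genes. In young Tert+/+ kidneys replicate 4 had the highest count of 8 of the 11, and in young G3 Tert-/- kidneys replicate 4 had the highest of 6. Those libraries held 9248496 and 9384047 reads, and young Tert+/+ replicate 5, the deepest at 9757594 reads, had the highest count of none. H1 genes went against this pattern, since Hist1h1c and Hist1h1e were highest in replicate 3 of young Tert+/+ and replicate 5 of young G3 Tert-/-, where Hist1h2bc was lowest.

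Genes around histone supply were counted as lists. The replication-independent histone variants, such as H2A.Z and H3.3, are made in all phases of the cell cycle. Of 10 tested, 0 passed in any of the 5 comparisons with limma, edgeR or DESeq2, and 2 of their tests had an unadjusted limma p under 0.05. The smallest was that of H1f0, the H1 variant of non-dividing cells, with an age difference of 0.32 in G3 Tert-/- (SE 0.14, limma adjusted p = 0.291). Factors that transcribe histone genes, among them Npat and Hinfp, gave 0 of 11 with each tool and 1 unadjusted p under 0.05, for Npat with age in G3 Tert-/- (0.30, limma adjusted p = 0.225). Genes for histone mRNA 3′ end formation and decay gave 0 of 14 with each tool and 0 unadjusted p under 0.05. Slbp itself averaged 67.1 ± 9.49 in old G3 Tert-/-, 54.9 ± 15.4 in old Tert+/+, 70.8 ± 17.1 in young G3 Tert-/- and 52.4 ± 11.3 in young Tert+/+ kidneys (SD, n = 5 each). Histone chaperones, which carry histones to DNA, gave 0 of 21 with each tool and 9 unadjusted p under 0.05. Of these Ssrp1 had the smallest, with an age difference of 0.31 in Tert+/+ (SE 0.11, limma adjusted p = 0.274). Of all tested genes, 6.22% to 14.9% per comparison had an unadjusted p under 0.05.

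Genes of S phase and cycling cells were also counted. Of 23 tested, 2 passed as lower with age in G3 Tert-/- (Top2a and Rrm2) and 1 in Tert+/+ (Top2a), where 1.31% and 0.246% of all tested genes did. Without the 2 libraries that stood apart these counts were 5 (Ccnb1, Cdk1, Mki67, Rrm2 and Top2a) and 0, where 4.58% and 0.897% of all tested genes were called in either direction. Ccnb1, Cdk1 and Rrm2 had fewer than 5 libraries at a count of 10 or above once a single group was set aside, so their calls support nothing. Top2a, the topoisomerase of dividing cells, averaged 46.9 ± 15.7 in old G3 Tert-/- and 98.3 ± 20.98 in young G3 Tert-/-, and 51.7 ± 12.7 in old Tert+/+ and 102 ± 11.2 in young Tert+/+ kidneys (SD, n = 5 each). It fell by 1.09 in G3 Tert-/- (SE 0.22, limma adjusted p = 0.00721) and by 0.99 in Tert+/+ (SE 0.22, limma adjusted p = 0.0331). Rrm2, a subunit of ribonucleotide reductase, had 5.28, 3.07, 6.23, 6.13 and 6.06 in old G3 Tert-/- kidneys, against 19.1, 13.7, 16.01, 10.8 and 15.01 in young ones. It reached a count of 10 in all 5 young G3 Tert-/- libraries and in 1 other library, so it was tested only through the group where it was high, and its call (limma adjusted p = 0.0495) supports nothing. Mki67, a marker of cycling cells, differed by -1.01 in G3 Tert-/- (limma adjusted p = 0.0726) and by -0.78 in Tert+/+ (limma adjusted p = 0.301).

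As a whole list, the S phase genes had a median age difference of -0.35 in G3 Tert-/-, with 19 of 23 negative, and of 0.01 in Tert+/+, with 11 of 23 negative, against a median of 0.00 for all genes in both. Of the 23, 4 had fewer than 5 libraries at a count of 10 or above once a single group was set aside, so these counts and medians are descriptions only. Summed counts of all 27 genes of the list, tested or not, were 1491 to 1728 in old G3 Tert-/- against 1769 to 2060 in young G3 Tert-/- kidneys. In Tert+/+ kidneys they were 1592 to 1833 in old mice against 1665 to 1947 in young mice. Cdc6, Cdc45, Ccna2 and Uhrf1 were at 0 in at least 1 library. The part of dividing cells in the fall of Hist1h4h was not tested.

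Lists for RNA kinds and cell types were counted in the same way. RNAs that lack a poly(A) tail gave 0 of 23 called with limma in each comparison. Over the 5 comparisons they had 44 unadjusted p under 0.05, 1 call with edgeR and 12 with DESeq2. Per comparison, 6.22% to 14.9% of all tested genes had an unadjusted p under 0.05. DESeq2 called 6 for genotype at 7 weeks and 6 for age in Tert+/+, where it called 0.0889% and 1.44% of all genes. The edgeR call was for age in Tert+/+, where edgeR called 0.69% of all genes. All 23 were negative for genotype at 7 weeks, with a median of -1.33. Their median age difference was 0.15 in G3 Tert-/- and -1.20 in Tert+/+. Of the 23, mt-Tl2 had fewer than 5 libraries at a count of 10 or above once young Tert+/+ was set aside. The counts and medians of this list are therefore descriptions only. B cell and plasma cell markers gave 3 of 8 higher with age in Tert+/+, where 0.403% of all tested genes were called higher, namely Igkc by 4.94 (SE 0.70, limma adjusted p = 0.000417), Igha by 4.29 and Jchain by 4.09. In G3 Tert-/- limma called 0 of 8, with 5 unadjusted p under 0.05, edgeR called 1 and DESeq2 called 3. Of all tested genes, 14.9% had an unadjusted limma p under 0.05 there, edgeR called 2.31% and DESeq2 called 3.62%. Cd79a, not called, had fewer than 5 libraries at a count of 10 or above once a single group was set aside. Sums over all 12 markers of the list, tested or not, were 659 to 10042 in old G3 Tert-/- against 548 to 1129 in young G3 Tert-/- kidneys. In Tert+/+ kidneys they were 3207 to 9828 in old mice against 398 to 850 in young mice. Cd79b, Iglc1 and Iglc2 were among the markers at 0 in at least 1 library.

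T cell markers (5 tested), macrophage markers (10) and erythroid markers (7) gave 0 calls with limma in the 5 comparisons. They had 6, 4 and 6 unadjusted p under 0.05, where 6.22% to 14.9% of all tested genes had one per comparison. Of the 5 T cell markers, 2 (Cd3e and Cd8a) had fewer than 5 libraries at a count of 10 or above once a single group was set aside. The T cell counts are therefore descriptions only. For macrophage markers edgeR and DESeq2 each called 1, C1qb, higher with age in G3 Tert-/-, and for the other lists they called 0. With age in G3 Tert-/-, edgeR called 1.05% and DESeq2 1.6% of all tested genes higher, and limma called 0.93% higher and 1.31% lower. Hepatocyte markers gave 1 of 9 higher, Serpina1a by 1.93, and 1 lower, Ttr by -1.52, with age in G3 Tert-/-. Nephron markers gave 1 of 14 higher, Slc12a3 by 0.62, and 2 lower, Calb1 by -0.61 and Slc5a2 by -0.58, with age in G3 Tert-/-. In Tert+/+ mice Slc12a3 was the 1 nephron marker called, higher by 0.57 with age. The part of these cell types and RNA kinds in the histone values was not tested.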

How the data were processed

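RNA from whole kidneys was sequenced at the 3′ end with the QuantSeq kit, in stranded libraries per the labels' protocols; the input was 300 ng, and quality scores averaged 6.6 (5.0 to 7.5). The deposited signal is a normalized count: the authors divided the reads of a gene by 1 size factor per library, as the table's name and its values show. All values were whole multiples of 1 step per library (tolerance 1e-06), so whole reads were recovered by division. The submitters' processing notes name build GRCm38 and, with no role given, HTSeq 0.6.1, TopHat2 2.0.10, SAMtools 0.1.19, DESeq2, FastQC 0.11.7 and Bowtie 1.0.0.

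Groups were taken from the labelled genotype and age, and replicates were numbered in listing order. The labels do not say that mice came from separate litters, so p-values measure the spread between these samples. Replicates differed by more than counting error in all 40 pairs, with a chi-square per degree of freedom from 3.88 to 97.7. Genes with a normalized count of 10 or more in at least 5 libraries entered 1 limma model of 4 group means with a trend (limma 3.58.1, R 4.3.3, two-sided), as log2(normalized count + 1). Alternatives were pseudocounts of 0.5 and 5, no filter, a filter of 20, TMM scaling, edgeR 4.0.16 and DESeq2 1.42.0 on the recovered reads, leaving out each library, and leaving out both libraries that stood apart. The fit was tested on simulated data. Histone genes were named by a rule on test results, mean level and spread that took all 11 tested genes and the 3 highest of the others. Lists name their passing genes, or else that of smallest p. The histone genes and the lists were chosen with earlier results of these data known.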

Additional observations from a re-analysis of the deposited data

Results flagged for a closer look

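Hist1h2be in old G3 Tert-/- kidneys had 1 library far from the others: replicate 5 held 20.2 normalized counts, and the other 4 held 9.21 to 11.4. In all, 60 groups of 5 libraries, for 15 genes, were examined for such a gap with Dixon's critical value of 0.710, and chance marks about 1 in 20 groups.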

How the results depend on the processing

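Hist1h4h kept its fall with age under all 29 settings in both genotypes, at -2.22 to -1.89 (log2), with limma, edgeR or DESeq2 adjusted p of at most 4.71e-05 in G3 Tert-/- and 0.000146 in Tert+/+. The number of histone genes called with age in G3 Tert-/- was 1, where 2.24% of all tested genes passed. It became 2 without a filter on low values (Hist1h1d joined), where 1.54% of all rows passed. It was also 2 without both libraries that stood apart (Hist1h4i joined), where 4.58% of all tested genes passed. Leaving out 1 library at a time this number ranged from 1 to 2, and Hist1h4i joined without young G3 Tert-/- replicate 4. The number called was 1 for age in Tert+/+ and 0 for both genotype effects and the interaction under every alternative. No paired analysis was possible because the groups are different mice and the labels give no pairing between them. Depth limits the 11 genes below the level for testing, all of which had a normalized count under 10 in most libraries, and counts of H4 genes may be shared among close copies.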
